A study of Mus musculus with 18 samples.

Results

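Fragments of transfer RNA (tRNA) were set against the total tRNA of the same wild-type (WT) mouse brains, to see which tRNAs gave fragments out of proportion to their share of the total pool. The study covered male C57BL/6 mice aged 8 weeks and given no treatment, 3 with the Ftsj1 gene knocked out (KO) and 3 WT. Each mouse gave 3 libraries from its brain: bands of tRNA fragment size and of tRNA size, both cut from gels of total RNA, and tRNA held in ribosomes after ribosome profiling. The comparison rests on the 3 fragment and the 3 total tRNA libraries of the WT mice. The 6 matching libraries of KO mice, which lack the tRNA methyltransferase FTSJ1, served as the same measure in other animals. The deposited table lists 147 tRNAs, each named by amino acid, a number and the anticodon, such as Glu3-CTC. The 94 that averaged at least 10 reads over the 6 WT libraries were tested. They belong to 47 anticodon families, a family being the tRNAs that share an amino acid and an anticodon. Members of a family were taken as isodecoders, which share the anticodon and differ elsewhere. What the numbers in the names stand for is not given in the sources used here.

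A tRNA carries an amino acid to the ribosome and reads a codon through its anticodon loop. Enzymes such as angiogenin cut tRNAs in that loop and leave fragments of either side, which have been described as regulators of translation and of the response to stress. Modified bases in the loop, among them the cytosine methyl group added by DNMT2 and the hypermodified guanosine queuosine, are known to change how readily some tRNAs are cut.

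The WT fragment libraries held 85323 to 113832 reads and the WT total tRNA libraries 1505291 to 1559702 reads. The 94 tested tRNAs took at least 99.98% of the reads of each of these libraries. Of the 147 tRNAs, 94 to 97 had a read in a WT fragment library and 137 to 143 in a WT total tRNA library. The other 53 tRNAs had at most 4 reads in any WT fragment library. Of those just outside the minimum, the highest was Ala10-AGC with a mean of 9.5 reads, and just inside it the lowest was Cys13-GCA with a mean of 10 reads. Glu3-CTC, Gly10-GCC and Gly11-GCC reached the minimum only through their fragment reads, so being high in fragments was a condition of their test. Values below are shares of a library's reads in percent, so each is relative to the other tRNAs of that library. No spike-in is used here. Whether adaptor ligation or reverse transcription differed between tRNAs or library types was not tested. In whole brain, fewer cells that use a tRNA and less of it per cell cannot be told apart. Libraries of one kind from different mice differed by more than counting error (chi-square per degree of freedom 4.0 to 10.9 between fragment libraries and 17.9 to 47.2 between total tRNA libraries). The libraries hold tRNA reads only, so neither brain marker genes nor the Ftsj1 transcript could be checked. How the counting treated a read that matches several tRNAs is not given in the sources used here. Values of isodecoders with near-identical sequences are therefore uncertain. The sum over a family does not depend on how reads were split among its own members. It would still change if reads matched tRNAs of several families, or if reads with several matches were left out.

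Fragment reads were concentrated on fewer tRNAs than total tRNA reads. The 5 most abundant tRNAs of each library took 42.7%, 43.6% and 43.8% of reads in fragments, against 33.5%, 34.7% and 33.8% in total tRNA. The means were 43.4% ± 0.583 in fragments and 34.0% ± 0.601 in total tRNA (SD, n = 3 mice each; two-sided exact permutation p = 0.1, the smallest that 3 against 3 allows). In each mouse 7 tRNAs were needed to reach 50% of the fragment reads, and 11 to reach 50% of the total tRNA reads. Of the 94 tRNAs tested, 83 (88.3%) passed an adjusted p of 0.05 in a paired test of fragments over total tRNA (edgeR's quasi-likelihood test with mouse as a block and Benjamini-Hochberg adjustment, here and below). There were 35 higher in fragments (37.2%) and 48 lower (51.1%). With a change of at least 2-fold as a further condition 65 passed (69.1%), 28 were higher (29.8%) and 37 lower (39.4%). The fitted change was at least 8-fold for 10 of the higher and 19 of the lower tRNAs. Among the 19 are 4 without any WT fragment read, whose bounds, given below, lie under 8-fold. For none of the 83 did the shares of the 3 fragment libraries overlap those of the 3 total tRNA libraries, and over all 94 tested tRNAs 92.6% did not overlap. The median log2 fold change over the 94 was -0.41.

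**Figure D1:**
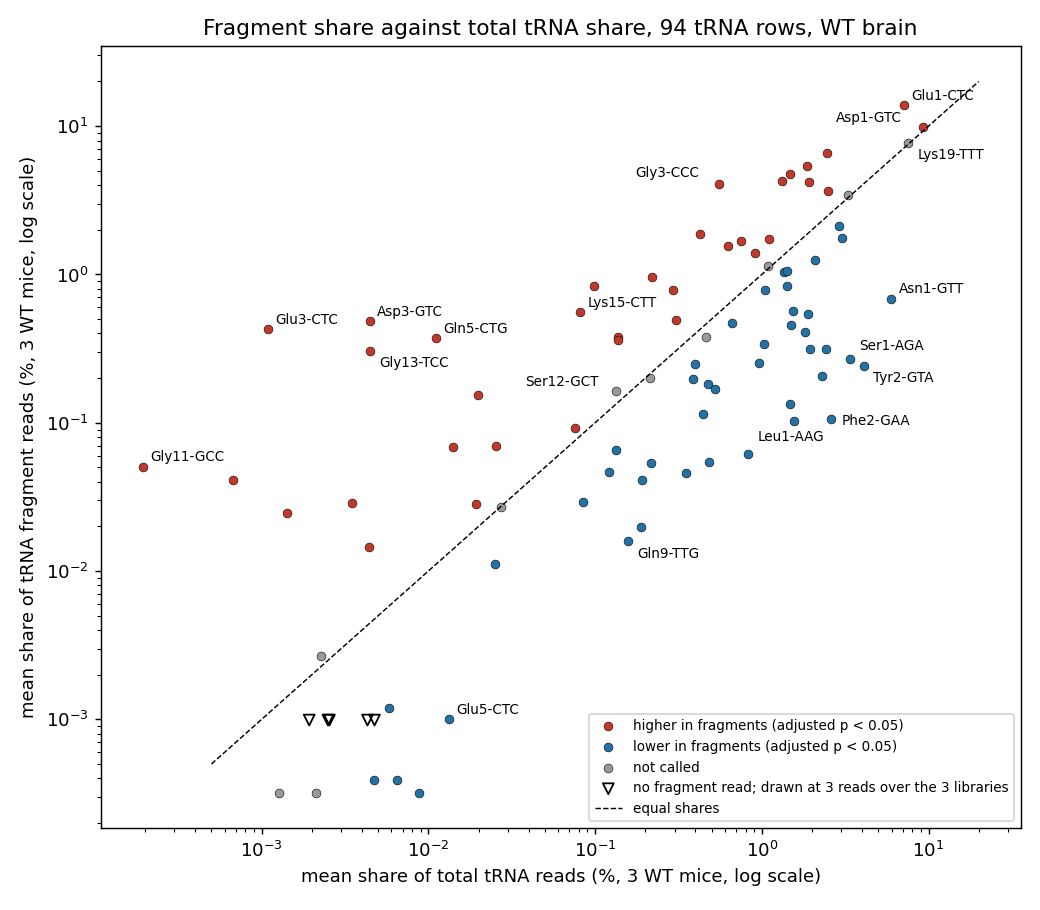
Mean share of tRNA fragment reads (vertical axis, %) against mean share of total tRNA reads (horizontal axis, %) over 3 WT mice, both on log scales, with 1 point per tested tRNA. Red points were called higher in fragments, blue points lower and grey points neither. Triangles have no fragment read and are drawn at 3 reads over the 3 libraries. Glu3-CTC lies at 0.426% of fragment reads and 0.00109% of total tRNA reads, and Phe2-GAA at 0.105% and 2.58%.

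Glycine tRNAs were weighted towards fragments. Together the 9 tested glycine tRNAs took 13.7% ± 0.703 of fragment reads and 4.41% ± 0.0435 of total tRNA reads (SD, n = 3 mice each), and 8 of the 9 were higher in fragments, beside 37.2% of all tested tRNAs. Among the 8, Gly10-GCC and Gly11-GCC met the minimum for testing only through their fragment reads. After Gly6-GCC, the most fragment reads among glycine tRNAs belonged to Gly3-CCC, which reads the glycine codon GGG. Its share was 4.38%, 4.23% and 3.59% in the fragment libraries of mice 1 to 3, against 0.546%, 0.558% and 0.549% in their total tRNA libraries. The fragment shares were all several times the total tRNA shares, with a log2 fold change of 2.94 (SE 0.08, adjusted p = 4.3e-08). Its isodecoders Gly4-CCC (log2 fold change 3.15, SE 0.08) and Gly5-CCC (2.39, SE 0.19) were also higher. Gly6-GCC, the abundant tRNA for the codons GGC and GGU and a DNMT2 target, held 6.76%, 6.76% and 6.34% of fragment reads, against 2.52%, 2.45% and 2.44% of total tRNA reads. This is a log2 fold change of 1.48 (SE 0.06, adjusted p = 3.3e-07). Gly1-ACC rose by 2.18 on the log2 scale (SE 0.09). The exception was Gly12-TCC, the tRNA for GGA, with 0.784%, 0.833% and 0.748% of fragment reads against 1.04%, 1.06% and 1.03% of total tRNA reads (log2 fold change -0.35, SE 0.08, adjusted p = 0.0034).

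The largest pool of fragments came from Glu1-CTC, which reads the glutamate codon GAG. It held 13.9%, 14.0% and 13.5% of fragment reads, against 6.92%, 7.47% and 7.01% of total tRNA reads (log2 fold change 1.02, SE 0.06, adjusted p = 2.1e-06). The groups did not overlap. Glu7-TTC, the glutamate tRNA for GAA, went the other way, with 1.25% ± 0.0568 of fragment reads and 2.08% ± 0.0392 of total tRNA reads (log2 fold change -0.67, SE 0.09, adjusted p = 0.00017). Glutamine tRNAs with different anticodons also had opposite calls. Gln3-CTG, for the codon CAG, held 4.33%, 4.21% and 4.18% of fragment reads against 1.34%, 1.26% and 1.35% of total tRNA reads (log2 fold change 1.75, SE 0.07). Gln9-TTG, for CAA, held 0.0158%, 0.0164% and 0.0154% of fragment reads against 0.160%, 0.157% and 0.158% of total tRNA reads (log2 fold change -3.26, SE 0.13). Gln9-TTG rests on 14 to 18 reads per fragment library.

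Of the 6 lysine tRNAs tested, 5 were higher in fragments, beside 37.2% of all tested tRNAs. Lys6-CTT, for the codon AAG, held 4.99%, 5.17% and 5.89% of fragment reads against 1.89%, 1.81% and 1.90% of total tRNA reads (log2 fold change 1.58, SE 0.08, adjusted p = 9.5e-07). Its isodecoder Lys15-CTT stood at 0.558% ± 0.0130 of fragment reads and 0.0815% ± 0.00219 of total tRNA reads (log2 fold change 2.84, SE 0.08). Lys19-TTT, for AAA and the third most abundant tRNA in fragments, held 7.45%, 7.82% and 7.93% of fragment reads against 7.23%, 8.03% and 7.39% of total tRNA reads. Those groups overlapped, and its log2 fold change of 0.10 did not pass (SE 0.07, adjusted p = 0.23). The scarce Lys23-TTT, added after its values were seen, was higher by 1.78 (SE 0.47), a call that ended without mouse 2 (adjusted p = 0.14). All 4 methionine tRNAs were higher in fragments, beside 37.2% of all tested tRNAs. The call of the scarcest of them, Met4-CAT, ended without mouse 1 (adjusted p = 0.13) and with no filter on low counts (adjusted p = 0.39). The initiator iMet1-CAT, which starts translation, held 4.20% ± 0.572 of fragment reads and 1.91% ± 0.119 of total tRNA reads (log2 fold change 1.19, SE 0.08), and the elongator Met1-CAT 1.67% ± 0.0884 and 0.755% ± 0.0417 (log2 fold change 1.21, SE 0.07). Val9-TAC, a valine tRNA, rose by 2.20 on the log2 scale (SE 0.08), with 1.92%, 1.88% and 1.84% of fragment reads against 0.419%, 0.416% and 0.444% of total tRNA reads.

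The highest ratios of fragments to total tRNA belonged to isodecoders that were scarce in total tRNA, which is the denominator of the ratio. Glu3-CTC had 544, 358 and 396 reads in the fragment libraries of mice 1 to 3, against 13, 23 and 14 reads in their total tRNA libraries, although the total tRNA libraries were sequenced more than 10 times as deeply. Glu3-CTC met the minimum for testing only through these fragment reads. Its shares were 0.478%, 0.420% and 0.381% of fragment reads against 0.000864%, 0.00150% and 0.000898% of total tRNA reads, which is a log2 fold change of 8.65 (SE 0.18, adjusted p = 1.4e-08). In mouse 1 the 95% Wilson interval ran from 0.439% to 0.520% in fragments and from 0.000505% to 0.00148% in total tRNA. Within its family Glu3-CTC made up 2.99% ± 0.297 of fragment reads and 0.0151% ± 0.00426 of total tRNA reads (SD, n = 3 mice each). In ribosome-contained tRNA it held 0.00102% ± 8.96e-05 of reads, against 0.00109% ± 0.000356 in total tRNA.

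Asp3-GTC, a scarce isodecoder of the aspartate tRNA, had 613, 424 and 439 fragment reads against 56, 71 and 79 total tRNA reads. Its shares were 0.539%, 0.497% and 0.422% of fragment reads against 0.00372%, 0.00462% and 0.00507% of total tRNA reads (log2 fold change 6.81, SE 0.15, adjusted p = 1.9e-08). It supplied 4.71% ± 0.667 of the Asp-GTC fragment reads and 0.0484% ± 0.00793 of the Asp-GTC total tRNA reads. Gly13-TCC had 361, 264 and 298 fragment reads against 51, 71 and 84 total tRNA reads (log2 fold change 6.15, SE 0.16, adjusted p = 2.8e-08). It made up 27.9% ± 0.866 of Gly-TCC fragment reads and 0.426% ± 0.0989 of Gly-TCC total tRNA reads, the other isodecoder being Gly12-TCC, which fell. Gln5-CTG had 436, 309 and 382 fragment reads against 169, 164 and 180 total tRNA reads (log2 fold change 5.12, SE 0.09, adjusted p = 1.4e-08). It made up 8.04% ± 0.105 of its family in fragments and 0.838% ± 0.0102 in total tRNA. In raw reads, 6 tRNAs had more in the fragment library than in the total tRNA library of every WT mouse: these 4 and the scarcer Gly10-GCC and Gly11-GCC, and none was the main isodecoder of its family. Gly11-GCC, singled out after its values were seen, had 67, 52 and 33 fragment reads against 0, 4 and 5 total tRNA reads. Like Gly10-GCC, it met the minimum for testing only through its fragment reads.

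**Figure D2:**
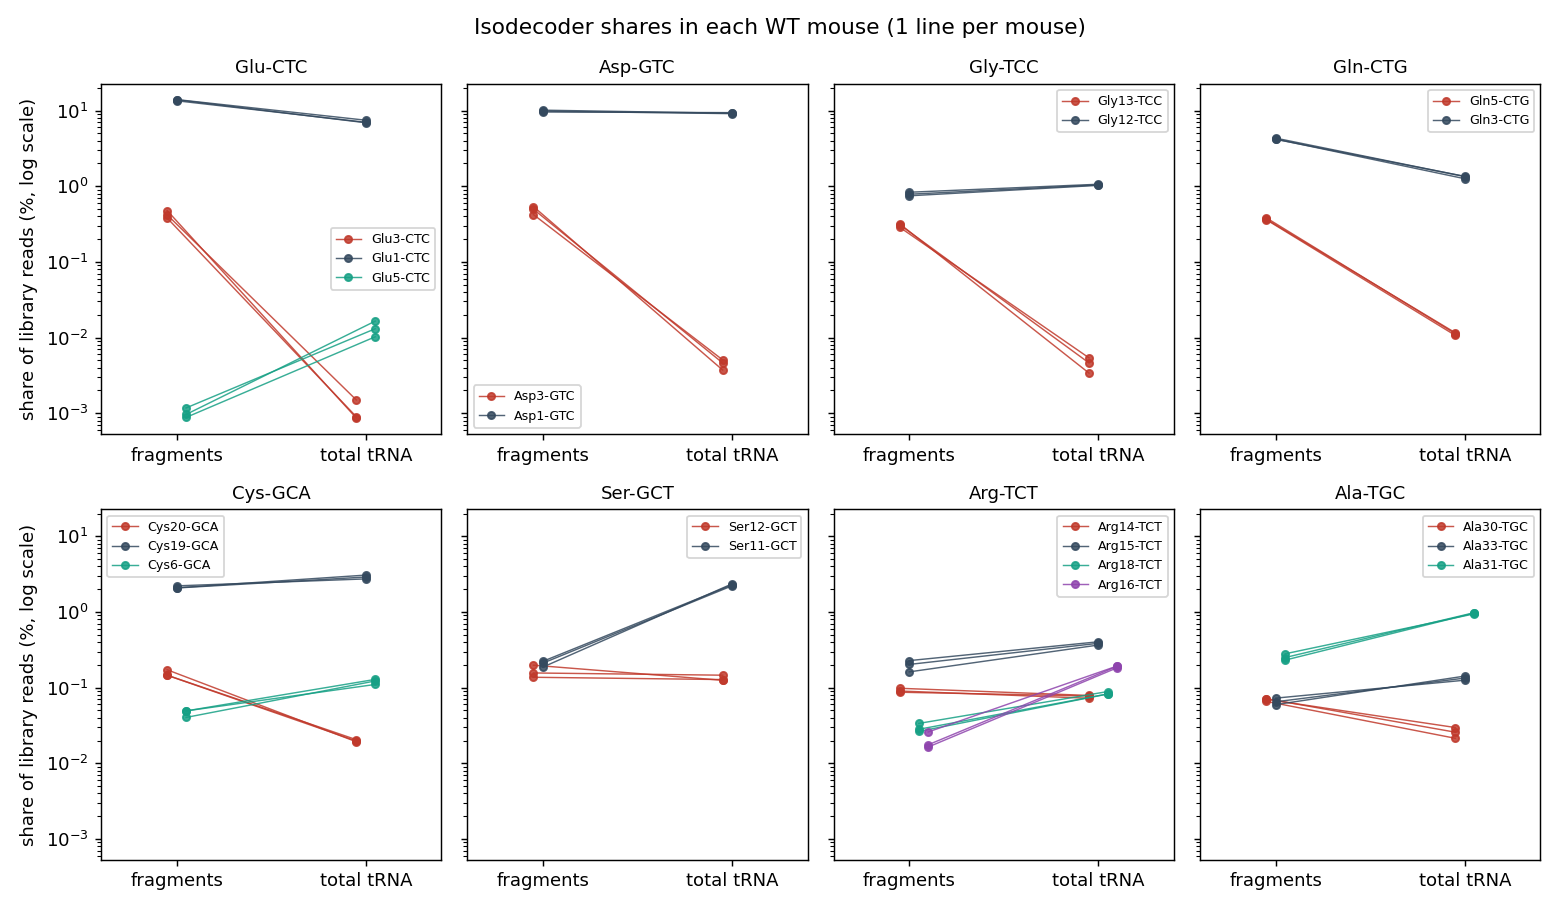
Share of library reads (%, log scale) of isodecoders of 8 anticodon families in fragments (left) and total tRNA (right), with 1 line per WT mouse and 1 colour per isodecoder. Lines of a colour run close together, and lines of different colours in a family cross or diverge. Glu3-CTC drops to 0.000864% to 0.00150% in total tRNA against 0.381% to 0.478% in fragments, whereas Glu5-CTC is the lower in fragments.

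As counted, isodecoders with the same anticodon differed from each other in most families. Each isodecoder was tested against the summed reads of its family, a difference that does not depend on the scaling between library types. It does depend on how reads matching several isodecoders were counted, which is not given. Whether that counting acted alike on fragments and total tRNA was not tested. There were 26 families with at least 2 tested members, 73 tRNAs in all. In 24 of the 26 (92.3%) members differed, and 46 of the 73 tRNAs (63%) departed from their family, 24 above it (32.9%) and 22 below (30.1%). The member with most total tRNA reads is called the main isodecoder here. Of the 47 others, 23 lay above their family, 15 below and 9 passed neither way. Of the 26 main isodecoders, 1 lay above its family, 7 below and 18 passed neither way. Since a main isodecoder dominates its family's sum, it can depart little from it. Main and other isodecoders were told apart by total tRNA reads, which are also the denominator of the fold change. The split is therefore not independent of the values tested, and these counts cannot show that scarcity goes with a higher fold change. Glu3-CTC, Gly10-GCC and Gly11-GCC, among the 23, met the minimum for testing only through their fragment reads. The count of 22 tRNAs below their family, main isodecoders included, depended on the data kept. It was 13 where at least 10 reads on average were required in each library type. Without mouse 1 or mouse 2 it was 14, and without mouse 3 it was 17.

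The widest range within a family was that of Glu-CTC, 12.3 on the log2 scale. It ran from Glu3-CTC at the top, over Glu1-CTC at 1.02, to Glu5-CTC. Glu5-CTC had 1 read in each WT fragment library against 154, 201 and 257 reads in total tRNA (log2 fold change -3.64, SE 0.45, adjusted p = 0.00013), and lay 4.70 below its family. In the cysteine family Cys-GCA the range was 4.34. Cys20-GCA was higher in fragments, with 0.146%, 0.172% and 0.146% against 0.0197%, 0.0193% and 0.0205% of total tRNA reads (log2 fold change 3.02, SE 0.10). Cys6-GCA was lower, with 0.0492%, 0.0492% and 0.0404% of fragment reads against 0.129%, 0.110% and 0.123% of total tRNA reads (log2 fold change -1.32, SE 0.11). The main isodecoder Cys19-GCA, with 90.2% ± 0.197 of the family in fragments and 95.2% ± 0.124 in total tRNA, had a log2 fold change of -0.39 (SE 0.07, adjusted p = 0.0013).

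The serine family Ser-GCT was divided as well. Its main isodecoder Ser11-GCT held 0.187%, 0.211% and 0.223% of fragment reads against 2.36%, 2.22% and 2.29% of total tRNA reads (log2 fold change -3.41, SE 0.10). Its other member Ser12-GCT held 0.156%, 0.137% and 0.198% of fragment reads against 0.146%, 0.128% and 0.125% of total tRNA reads, groups that overlapped (log2 fold change 0.36, SE 0.15, adjusted p = 0.051). Against its family Ser12-GCT lay 3.01 higher (adjusted p = 1.7e-08), and it made up 44.0% ± 4.05 of the family in fragments and 5.49% ± 0.326 in total tRNA. In the arginine family Arg-TCT, which has a brain-enriched member in mice, 4 isodecoders were spread over 3.50 log2 units. Arg14-TCT was the only member above its family (by 1.4, adjusted p = 1.0e-07), with 27.3% ± 2.20 of the family in fragments and 10.4% ± 0.411 in total tRNA. Its own log2 fold change of 0.33 (SE 0.10, adjusted p = 0.017) was no longer called without mouse 1 (adjusted p = 0.11) or mouse 2 (adjusted p = 0.066). Arg16-TCT lay 2.11 below the family, at 5.87% ± 0.944 of it in fragments and 25.8% ± 0.818 in total tRNA. In Ala-TGC, an alanine family, Ala30-TGC rose by 1.51 (SE 0.13) while the main isodecoder Ala31-TGC fell by 1.87 (SE 0.09). Which of these tRNAs is the brain-enriched one is not stated in the table.

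Summed over isodecoders, 43 of 47 families passed (91.5%), 18 higher (38.3%) and 25 lower (53.2%), and 10 were at least 2-fold higher (21.3%) and 18 at least 2-fold lower (38.3%). The 10 were Gly-CCC, Val-TAC, Gly-ACC, Gln-CTG, Arg-CCT, Lys-CTT, Gly-GCC, Met-CAT, iMet-CAT and Glu-CTC, with log2 fold changes between 3.20 and 1.29. The lowest were Phe-GAA (-4.34, SE 0.12), Leu-AAG (-3.65, SE 0.25), Tyr-GTA (-3.57, SE 0.06) and Ser-AGA (-3.39, SE 0.19). Small family changes followed the scaling. The family fit has scaling factors of its own, and in the 21 families with 1 tested tRNA its log2 fold changes lay 0.23 above those of the tRNA by itself. Ile-AAT and Lys-TTT were thus called higher as families (0.35, SE 0.05, and 0.33, SE 0.07), although Ile1-AAT and Lys19-TTT did not pass. With size factors as DESeq2 computes them, 22 families were higher and 19 lower, and scaled by total reads 14 were higher and 27 lower, so 53.7% and 34.1% of the calls were higher, against 41.9% in the first count. Ala-AGC, called higher by 0.19 (SE 0.07), had the smaller share in fragments, 1.41% ± 0.0643 against 1.51% ± 0.0915 of total tRNA reads.

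Of the tRNAs with more than 1 WT fragment read, the most depleted in fragments was Phe2-GAA, a phenylalanine tRNA and known FTSJ1 substrate. It had 0.0817%, 0.124% and 0.111% of fragment reads against 2.55%, 2.72% and 2.48% of total tRNA reads. With 93 to 115 fragment reads per mouse, Phe2-GAA had a log2 fold change of -4.57 (SE 0.13, adjusted p = 3.8e-08), which is 23.7-fold lower. Tyr2-GTA, the main tyrosine tRNA, held 0.232%, 0.277% and 0.220% of fragment reads against 4.02%, 4.20% and 4.09% of total tRNA reads (log2 fold change -4.02, SE 0.08). Asn1-GTT, the tested asparagine tRNA and the fourth most abundant in total tRNA, held 0.659%, 0.718% and 0.687% of fragment reads against 5.97%, 5.86% and 6.08% of total tRNA reads (log2 fold change -3.06, SE 0.07). For these 3 tRNAs each fragment share lay far below each total tRNA share. In ribosome-contained tRNA they held 3.75% ± 0.185, 6.48% ± 0.550 and 6.42% ± 0.409 of reads, beside 2.58% ± 0.127, 4.10% ± 0.0891 and 5.97% ± 0.109 in total tRNA, a comparison that was not tested here.

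Serine and leucine tRNAs, and the selenocysteine tRNA, carry a long variable arm between the anticodon stem and the T stem. Of the 14 tested, 12 were lower in fragments, none was higher and 2 did not pass, against 51.1% lower over all tested tRNAs. Their summed share was 2.60%, 2.46% and 2.71% of fragment reads against 13.2%, 13.7% and 13.5% of total tRNA reads. The list's median log2 fold change was -2.98, or -2.52 with tRNAs that had no fragment read set at their bound. Ser1-AGA, the most abundant of them, held 0.191%, 0.259% and 0.355% of fragment reads against 3.29%, 3.35% and 3.47% of total tRNA reads (log2 fold change -3.62, SE 0.17). Ser14-TGA (-3.40, SE 0.14), Ser6-CGA (-3.67, SE 0.15) and Leu1-AAG (-3.88, SE 0.22) were similar in size. The members that did not pass were Ser12-GCT and Leu3-CAA (log2 fold change -0.21, SE 0.09, adjusted p = 0.059).

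**Figure D3:**
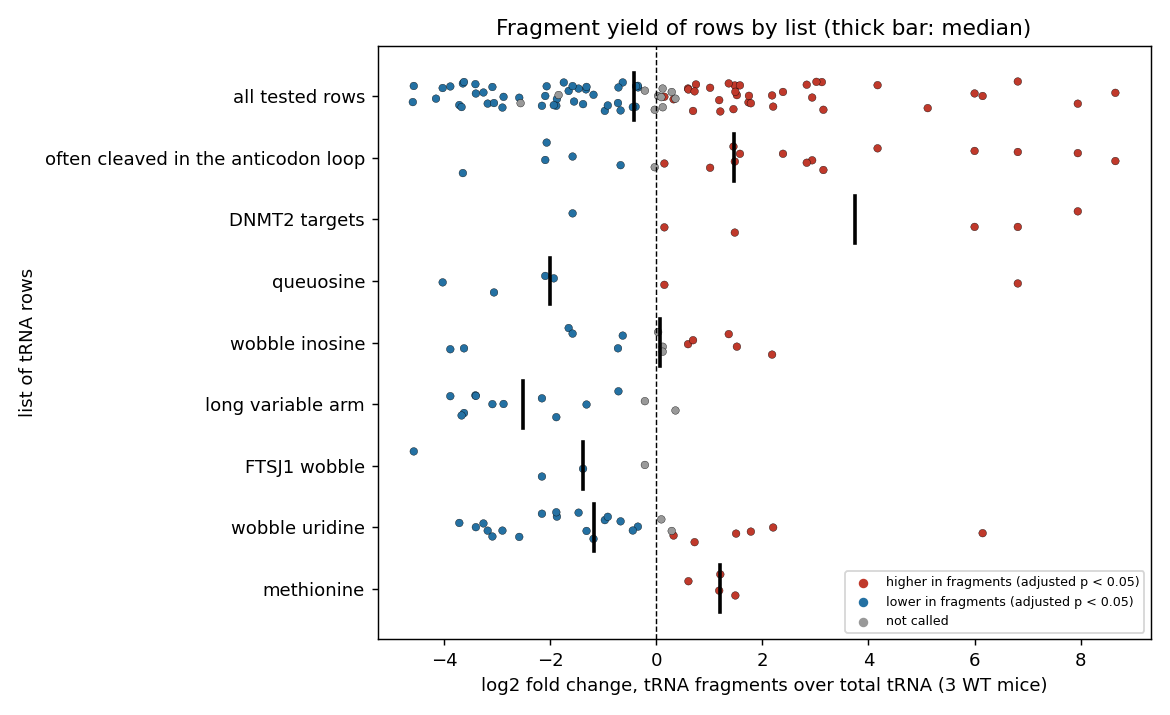
Log2 fold change of fragments over total tRNA (horizontal axis, 3 WT mice) for all tested tRNAs and for 8 overlapping lists, 1 point per tRNA, with red called higher, blue lower and grey neither. Thick bars are medians with the 5 tRNAs without a fragment read set at their bound, and these 5 are not drawn. The bar of the long variable arm list lies at -2.52 and that of all tested tRNAs at -0.41, and points within a list spread over several log2 units.

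Other properties of the anticodon or loop divided the tRNAs less evenly. Like the long variable arm list, the lists below were chosen with earlier results of these data known. Of 22 tRNAs in families often reported as cut in the anticodon loop, 14 were higher in fragments, 6 lower and 2 did not pass, beside 37.2% higher and 51.1% lower over all tested tRNAs. The list's median log2 fold change was 1.47, and that of all tested tRNAs -0.41. Together they took 44.6% ± 0.355 of fragment reads and 26.3% ± 0.194 of total tRNA reads. The 6 lower ones included Glu7-TTC and Glu5-CTC. Among the 14 higher, Glu3-CTC, Gly10-GCC and Gly11-GCC met the minimum for testing only through their fragment reads. Of the 6 tRNAs in DNMT2 target families, 5 were higher (37.2% over all tested tRNAs) and 1 lower, with a median of 3.74. That median lies between Gly6-GCC at 1.48 and the scarce Gly10-GCC at 6.00, so it rests on scarce isodecoders. Among the 5 higher, Gly10-GCC and Gly11-GCC met the minimum for testing only through their fragment reads. Of the 6 queuosine tRNAs 4 were lower, beside 51.1% lower over all tested tRNAs, with a median of -2.01 and 11.7% ± 0.260 of fragment reads and 21.4% ± 0.10 of total tRNA reads. The other 2 were the aspartate isodecoders Asp3-GTC and Asp1-GTC. Asp1-GTC, the most abundant tRNA in total tRNA, held 9.59%, 9.85% and 10.1% of fragment reads against 9.40%, 9.12% and 9.22% of total tRNA reads. Its log2 fold change of 0.15 (SE 0.06, adjusted p = 0.043) was no longer called without mouse 1 (adjusted p = 0.58) or mouse 2 (adjusted p = 0.082), and its sign turned under 2 other filters on low counts.

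Families whose anticodon starts with C gave 47.1% ± 0.471 of fragment reads and 26.5% ± 0.196 of total tRNA reads. Of their 35 tRNAs 17 were higher and 15 lower, beside 37.2% and 51.1% over all tested tRNAs. The largest shares of fragment reads in this sum were Glu1-CTC (13.8%), Lys6-CTT (5.35%), Arg7-CCT (4.74%), Gln3-CTG (4.24%), iMet1-CAT (4.20%) and Gly3-CCC (4.07%). Of the 27 tRNAs with a wobble uridine, whose anticodon starts with T in the table, 19 were lower and 6 higher, beside 51.1% lower and 37.2% higher over all tested tRNAs, with a median log2 fold change of -1.18. They took 16.1% ± 0.414 of fragment reads and 22.4% ± 0.523 of total tRNA reads. The 14 tRNAs whose anticodon starts with A, where adenosine can be changed to inosine, were 5 higher, 6 lower and 3 without a call, with a median of 0.08. They were chosen by the anticodon alone, and whether each carries inosine was not checked. Arg1-ACG, which had the highest share of fragment reads among them, had a log2 fold change of 0.60 (SE 0.07, adjusted p = 0.00012), a call that ended with no filter on low counts (0.25, adjusted p = 0.17). Ile1-AAT held 3.41% ± 0.0536 of fragment reads and 3.27% ± 0.156 of total tRNA reads (log2 fold change 0.12, SE 0.07, adjusted p = 0.11). Of the 5 tRNAs in the families that FTSJ1 modifies at the wobble position, 4 were lower, Leu9-TAA included, and 1 did not pass, beside 51.1% lower over all tested tRNAs, with a median of -2.15, or -1.38 with Leu9-TAA set at its bound. Among them Trp1-CCA, the tryptophan tRNA, held 0.572%, 0.554% and 0.581% of fragment reads against 1.60%, 1.41% and 1.63% of total tRNA reads (log2 fold change -1.38, SE 0.08).

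At the low end, 5 tested tRNAs had no read in any WT fragment library. A count of 0 allows a share of up to 0.00264%, 0.00352% and 0.00288% in the fragment libraries of mice 1 to 3. Counted at the limit of 3 reads over the 3 libraries, Ala21-CGC was at least 4.81-fold lower in fragments, Ala24-CGC at least 4.37-fold, Leu9-TAA at least 2.57-fold and Val6-CAC at least 2.53-fold. Val4-CAC was not called, and its bound was 1.95-fold. The calls of Ala21-CGC and Ala24-CGC ended without mouse 1 or mouse 2, and those of Leu9-TAA and Val6-CAC without any of the mice in turn. Ala22-CGC and Ala23-CGC had 1 fragment read each over the 3 mice, against 92 to 161 and 71 to 126 total tRNA reads per mouse (log2 fold changes -4.59, SE 0.77, and -4.15, SE 0.86). The call of Ala23-CGC ended without mouse 2 (adjusted p = 0.11). These alanine tRNAs are scarce companions of Ala18-CGC, and each of the 4 by itself made up 1.48% to 1.79% of the family in ribosome-contained tRNA, beside 0.226% to 0.461% in total tRNA (means over 3 mice, not tested).

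The number of tRNA genes annotated for an anticodon overlapped between families higher and lower in fragments. Genes of Met-CAT, iMet-CAT and SeC-TCA were not counted. In the RefSeq gene table for GRCm38.p6, used for names only, the other 44 families had at least 1 tRNA gene counted under their anticodon. The 16 of them higher in fragments had a median of 8 genes (range 1 to 24), the 24 lower ones a median of 7 (range 1 to 13) and the 4 without a call a median of 7.5 (range 4 to 56). Gly-CCC had 6 genes and Glu-CTC 12, against 7 for Phe-GAA, 10 for Tyr-GTA and 13 for Asn-GTT.

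The same measure was taken in KO brain, in 3 other mice with their own fragment and total tRNA libraries. In KO mice 86 of the 94 tRNAs passed (91.5%), 36 higher (38.3%) and 50 lower (53.2%). KO mice gave the same call for 34 of the 35 tRNAs higher in WT and for 47 of the 48 lower in WT. None was called in the opposite direction. The WT calls without a KO call were Trp1-CCA and Met4-CAT, and 5 tRNAs were called in KO only. Glu3-CTC had a log2 fold change of 8.43 in KO and 8.65 in WT, and its difference between genotypes in a fit over 12 libraries did not pass (-0.11, SE 0.31, adjusted p = 0.82).

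The fold change of fragments over total tRNA differed between genotypes, in a fit over 12 libraries, for 10 of the 94 tRNAs (10.6%). That fit has its own scaling over 12 libraries, so its differences depart a little from those between the fold changes fitted within each genotype. Phe2-GAA showed the largest difference. In KO brain it held 0.443% ± 0.0256 of fragment reads and 1.09% ± 0.0933 of total tRNA reads, whereas in WT brain it held 0.105% ± 0.0217 and 2.58% ± 0.127 (SD, n = 3 mice each). Fitted within each genotype, its log2 fold change was -1.31 in KO and -4.57 in WT, and the fit over 12 libraries gave a difference of 3.39 (SE 0.15, adjusted p = 9.0e-10). Trp1-CCA had a log2 fold change of -0.05 in KO and -1.38 in WT, and a fitted difference of 1.45 (SE 0.12, adjusted p = 1.5e-06). The other FTSJ1 wobble tRNAs with fragment reads did not pass, with differences of 0.21 for Leu3-CAA (SE 0.13) and 0.07 for Leu6-TAA (SE 0.18). Of the tRNAs that stood highest in fragments, Gln5-CTG (-1.17, SE 0.19) and Gly13-TCC (-0.74, SE 0.22, adjusted p = 0.048) had a smaller fold change in KO.

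**Figure D4:**
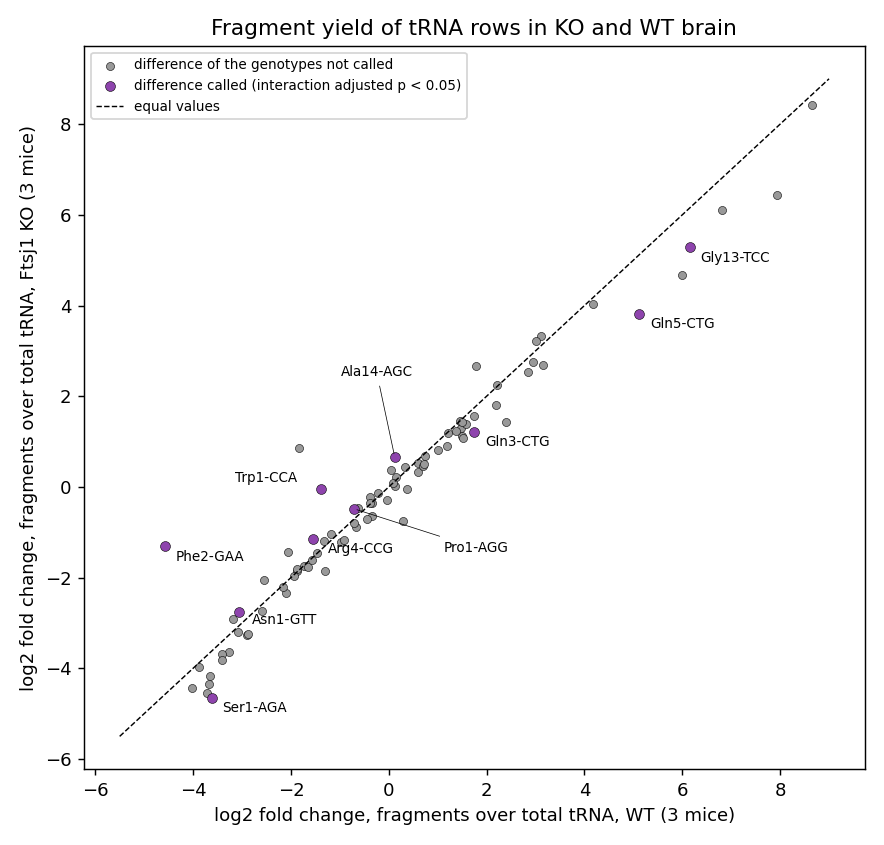
Log2 fold change of fragments over total tRNA in Ftsj1 KO brain (vertical axis) against WT brain (horizontal axis), 3 mice each, for the 87 tested tRNAs with a fragment read in both genotypes. Purple points are the 10 tRNAs whose difference between genotypes was called. Most points lie near the dashed line of equal values, and Phe2-GAA lies above it, at -1.31 in KO and -4.57 in WT.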

How the data were processed

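The authors deposited 1 table of counts, sequenced read numbers per the file headers, with 147 tRNAs and 18 library columns. Per the labels, RNA was cut from gels, treated with the demethylase AlkB and ligated to a 3′ adaptor before reverse transcription and MiSeq sequencing. The submitters' processing notes name Bowtie2. Not given in the sources used here: its version, the tRNA reference set and how a read matching several tRNAs was counted. Reads carry no molecular identifiers, so intervals cover counting error only. Read ends and lengths are not in the table, and no tRNA sequence was read here. Every value column was mapped to a sample, with 0 left over. A ribosome-contained column headed K3 was taken as KO mouse 3.

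Counts of tRNAs with a mean of at least 10 reads over 6 libraries were tested in edgeR 4.0.16 (R 4.3.3) with TMM scaling, mouse as a block and Benjamini-Hochberg adjustment at 0.05. Isodecoders were tested against their family with diffSpliceDGE on the same fit. The difference between genotypes was fitted over 12 libraries. Each SE given with a log2 value was derived from the test, as the absolute log2 value divided by the square root of its F statistic. In WT the biological coefficient of variation common to all tRNAs was 0.0839. The block is used because both libraries of a number come from 1 mouse per the labels. Same-mouse correlations of deviations over 68 tRNAs were 0.12, 0.03 and -0.11 for mice 1 to 3. The highest correlations with another mouse were -0.07, 0.23 and 0.06, so the counts by themselves do not show the pairing. The replicates are separate mice. Alternatives used DESeq2 1.42.0 and limma 3.58.1 (voom), and tables and plots pandas 2.3.3 and matplotlib 3.10.9 in Python 3.11.15. In 20 simulations of the WT comparison over 94 tRNAs, with 20 changed tRNAs of at least 100 reads on average, 90% of 1.5-fold and 97.5% of 2-fold changes were recovered and 0.878% of unchanged tRNAs were called. For the KO comparison over 94 tRNAs these were 86%, 97.5% and 0.811%. The data themselves gave 83 calls among the 94 tRNAs in WT, 65 of them at least 2-fold, and 86 in KO. Recovery and the rate of calls among unchanged tRNAs were not tested with so many tRNAs changed.

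The tRNAs named are up to 12 per direction with the largest change (called, mean of at least 50 reads, no overlap), the 5 most abundant in fragments and in total tRNA, the highest and lowest isodecoder of the 8 families with the widest range, and the 2 most abundant of each list. Families, and tRNAs outside this rule, were chosen after their values were seen. Members and the 8 lists were chosen with earlier results of these data known.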

Additional observations from a re-analysis of the deposited data

Results flagged for a closer look

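The fold change of fragments over total tRNA differed between KO and WT mice for 7 of the named tRNAs, in a fit over 12 libraries with edgeR's quasi-likelihood test. Differences are KO minus WT on the log2 scale, and the background was 10.6% of the 94 tRNAs. Phe2-GAA differed by 3.387 (SE 0.15, adjusted p = 9.0e-10), with 0.443% of fragment reads and 1.09% of total tRNA reads in KO against 0.105% and 2.58% in WT. Trp1-CCA differed by 1.452 (SE 0.12, adjusted p = 1.5e-06), with 1.32% and 1.36% in KO against 0.569% and 1.55% in WT. Gln5-CTG differed by -1.173 (SE 0.19, adjusted p = 0.00098), with 0.232% and 0.0164% in KO against 0.371% and 0.0111% in WT. Ser1-AGA differed by -0.9094 (SE 0.18, adjusted p = 0.0037), with 0.133% and 3.33% in KO against 0.268% and 3.37% in WT. Asn1-GTT differed by 0.4295 (SE 0.10, adjusted p = 0.012), Gln3-CTG by -0.4082 (SE 0.10, adjusted p = 0.014) and Gly13-TCC by -0.7438 (SE 0.22, adjusted p = 0.048). The other 3 tRNAs called, chosen for mention after their values were seen, were Ala14-AGC (0.66), Arg4-CCG (0.53) and Pro1-AGG (0.37).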

How the results depend on the processing

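Over 11 alternatives (other scalings, filters and tools, no replicate block, or 1 mouse left out), 31 to 39 tRNAs were higher in fragments and 37 to 52 lower. Of the 83 calls, 66 were made in every alternative that tested them, as were 35 of the 42 named tRNAs' results. The number of isodecoders below their family moved to 13 from 22 with at least 10 reads on average in each library type, and to 14 to 17 with 1 mouse left out. Fewer tRNAs were tested under that filter, and fewer libraries without a mouse. Without any filter beyond 1 read, 4 named tRNAs near 0 turned sign: Arg14-TCT (-0.0244), Asp1-GTC (-0.19), Ile1-AAT (-0.23) and Lys19-TTT (-0.25). With 10 reads in each library type Asp1-GTC (-0.0248), Ile1-AAT (-0.0569) and Lys19-TTT (-0.0818) did so. With 1 mouse left out Ile1-AAT ranged from -0.0467 to 0.147 and Lys19-TTT from -0.0531 to 0.181, negative without mouse 1. With DESeq2 size factors or a minimum mean of 50 reads Ile1-AAT, Lys19-TTT and Ser12-GCT were called higher (log2 fold changes 0.18 to 0.49). The cause was not tested. Without the block 36 tRNAs were higher and 50 lower, including all 83 calls, so pairing by mouse changed none of them. The median over all tRNAs was -0.41 with TMM, -0.28 with DESeq2 size factors, -0.48 with total reads and -1.53 without a filter (147 tRNAs), so changes near 0 are relative to the scaling. The difference in the share of the 5 most abundant tRNAs, 9.37 percentage points, lay between 9.05 and 9.59 with 1 mouse left out. Fragment depth is the limit for scarce tRNAs: 81 of the 94 averaged at least 10 reads in fragments.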

Other observations

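Threonine tRNAs showed a further division inside a family, picked out after their values were seen. In Thr-AGT the main isodecoder Thr4-AGT was lower in fragments (log2 fold change -1.65, SE 0.09), while Thr6-AGT (1.37, SE 0.08) and Thr3-AGT (0.69, SE 0.07) were higher. Thr4-AGT made up 13.4% ± 0.477 of the family in fragments and 49.4% ± 2.68 in total tRNA, and Thr6-AGT 45.4% ± 2.51 and 20.6% ± 0.596 (SD, n = 3 mice each).

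Tyr5-GTA, the scarcer tyrosine isodecoder, made up 18.3% ± 4.72 of Tyr-GTA reads in fragments, 5.01% ± 0.245 in total tRNA and 0.521% ± 0.0715 in ribosome-contained tRNA. It lay 1.87 above its family in fragments over total tRNA (adjusted p = 9.2e-07). The comparison with ribosome-contained tRNA was not tested here. The selenocysteine tRNA SeC1-TCA held 0.184% ± 0.0124 of fragment reads, 0.478% ± 0.0184 of total tRNA reads and 0.0129% ± 0.00506 of ribosome-contained tRNA reads.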
